A study of Rattus norvegicus with 232 samples.

Results

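The GK/FarMcwi (Goto-Kakizaki) rat is a lean inbred strain that develops diabetes without obesity, and its brain transcriptome was compared here with those of 7 other classic inbred strains sequenced alongside it. The members were the 3 GK/FarMcwi animals among the 232 samples of the series, and the comparison animals were chosen by strain and sequencing batch: 3 animals each of BN/NHsdMcwi, FHH/EurMcwi, LH/MavRrrc, M520/N, MWF/Hsd, PVG/Seac and WAG/RijCrl, all sequenced in batch 15, 16 or 17. The series is a panel of rat strains in which ribosomal RNA-depleted total RNA from brain was sequenced, and the values are the authors' log2-scale expression estimates for 20859 RefSeq genes (version 7.1 of the tables). All 24 animals were labelled as untreated whole brain from inbred rats, so that the groups differed in their labels by strain and sequencing batch. The series describes its animals as naive males, and the Y-linked genes Kdm5d and Uty were expressed in all 24 libraries (lowest values 10.34 and 9.43). The labels of these animals give neither an age nor a blood glucose value. The genetic background of GK/FarMcwi, its diabetes and anything else that went with strain therefore cannot be told apart in any result below.

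Goto-Kakizaki rats were bred from outbred Wistar rats by repeated selection for poor glucose tolerance. The strain is known for a reduced pancreatic beta-cell mass and for insulin resistance in peripheral tissues. In the brain, insulin and insulin-like growth factors act through receptor tyrosine kinases, glucose enters through facilitative transporters, and lactate and ketone bodies enter through monocarboxylate transporters. Type I interferons and the class I molecules of the major histocompatibility complex (MHC) belong to innate and adaptive immunity, and both are expressed at low levels in healthy brain.

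A difference is given below as the GK/FarMcwi mean minus the mean of the 7 other strain means, on the log2 scale, with its standard error (SE), and a gene was called when its adjusted p in limma passed a false discovery rate of 5%. A gene was described as outside when all 3 GK animals lay above, or all 3 lay below, every one of the 21 other animals, and the gap is the distance between the nearest GK animal and the nearest other animal. Library medians of the 24 animals ranged from 8.27 to 8.37. Of the 24 libraries, 19 resembled another library of their own strain most closely, including all 3 GK libraries. The others were M520/N animal 1, MWF/Hsd animal 1 and all 3 WAG/RijCrl animals. Of the 4 batch 15 libraries, 3 were nearest another batch 15 library. Over the 400 most variable genes, each GK library correlated with the other GK libraries at 0.58 to 0.79 and with no other library above 0.22, whereas MWF/Hsd animal 1 reached 0.26 and WAG/RijCrl animal 2 reached 0.00 with the other animals of their labelled strains. Batch 15 held 4 of the comparison animals and no GK animal, and the GK animals came from batch 16 (1 animal) and batch 17 (2 animals). Sequencing depth is unknown because the tables hold no read counts.

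The first question was how many genes set GK/FarMcwi apart. Of 20859 genes, 816 were called (3.91%), with 361 higher (1.73%) and 455 lower (2.18%) in GK. The majority turned with scaling, to 415 higher and 374 lower with library medians set equal and to 409 and 376 with quantile normalization. In 305 genes (1.46%) the 3 GK animals lay outside the 21 others, with 139 above (0.666%) and 166 below (0.796%). The outside genes included 259 that were also called in the same direction (1.24%), which is 84.9% of the outside genes and 31.7% of the called genes. The split of the outside genes also depended on scaling: 45.6% of the outside genes were higher as deposited, and 60.5% of 281 were higher after library medians were set equal. The median size of the difference was 0.45 among outside genes that were higher and 0.44 among those that were lower, and only 12 outside genes had a gap of 0.5 or more. In 133 of the 305 outside genes (43.6%), GK/FarMcwi had the most extreme mean of all 73 strains in the table. At the edge of the criterion, Rapgef5 lay outside with a gap of 8.2e-05, and Rbks missed it by 0.00019.

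**Figure D1:**
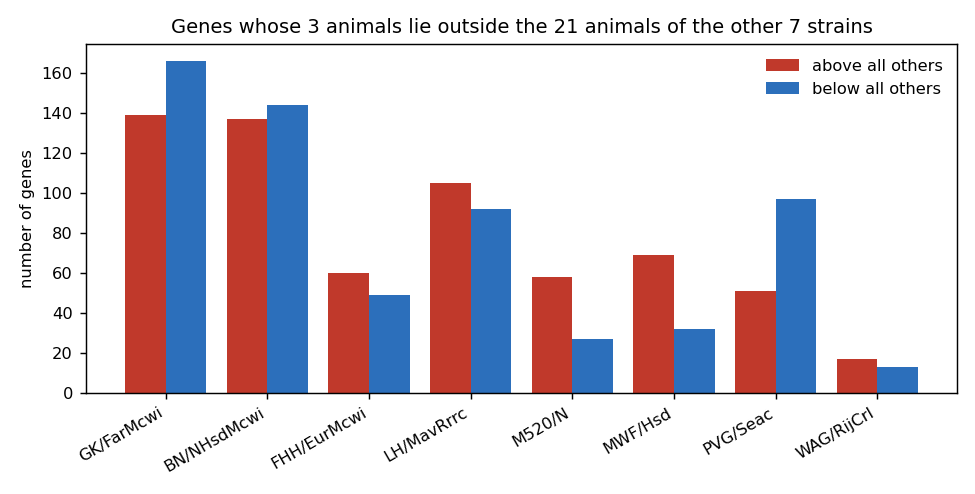
Number of genes (y axis) whose 3 animals lay above (red) or below (blue) all 21 animals of the other 7 strains, for each of the 8 strains (x axis). GK/FarMcwi had 139 above and 166 below, BN/NHsdMcwi had 137 and 144, and WAG/RijCrl, whose animal 2 stood apart from its strain, had 17 and 13.

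The same criterion applied to each of the 8 strains in turn, shown in the plot of counts by strain, gave 281 genes for BN/NHsdMcwi, 197 for LH/MavRrrc, 148 for PVG/Seac, 109 for FHH/EurMcwi, 101 for MWF/Hsd, 85 for M520/N and 30 for WAG/RijCrl. GK/FarMcwi had the highest count of outside genes in these libraries, while BN/NHsdMcwi had more called genes (972). The 8 counts share animals and are a description. The 4 strains with animals in batches 16 and 17 alone had the higher counts (148 to 305) and the 4 with a batch 15 animal the lower ones (30 to 109), and MWF/Hsd and WAG/RijCrl each held an animal that stood apart from its strain. The part of batch and of these animals in the order of the strains was not tested. With 1 strain against 7, an exact permutation over strains has 8 arrangements and cannot give a p below 0.125, so the adjusted p-values measure GK/FarMcwi against the spread between animals within strains and not against the spread between strains. Calls rose to 1344 with sequencing batch as a covariate, and fell to 422, 427 and 382 without GK animal 1, 2 or 3. Outside counts rose to 491, 506 and 488 when those animals were left out in turn, where only 2 GK animals had to meet the criterion, and to 461 without MWF/Hsd animal 1 and the WAG/RijCrl animals, where 1030 genes were called. The other 2 gene tables used were fitted, with adjustment over their own features: reconstructed genes (84239 features, 21 of the 24 animals, without animal 1 of FHH/EurMcwi, M520/N and MWF/Hsd) and v6 Ensembl genes (18644 genes, 23 animals, without MWF/Hsd animal 1). Of the named genes called here, 26 of 48 held by symbol in the reconstructed table were called there in the same direction, and 47 of 56 in the v6 Ensembl table.

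Some of the genes above all other animals are induced by type I interferons, antiviral cytokines whose receptor signals to genes that block viral replication. A list of 56 such genes was drawn up after the values had been seen, so its counts are a description and no test was made of it. Of 55 measured, 19 were called higher, none was called lower and 36 did not pass, against 3.91% called among all genes, and the median difference was 0.26 against -0.01 over all genes. The 9 that lay outside were Ifit1, Mx2, Oas1a, Irf7, Irf9, Usp18, Dhx58, Ifi27 and Slfn2. The mean over the list ranged from 7.31 to 7.45 in the GK animals and from 6.92 to 7.21 in the other 21. Without GK animal 2 the number called was 12, it was 20 without MWF/Hsd animal 1 and the WAG/RijCrl animals, and it was 9 of 45 in the reconstructed gene table.

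Ifit1, which encodes a protein that binds viral RNA lacking the host cap methylation, is annotated on chromosome 1 at 232152038 to 232154103, plus strand, in the deposited annotation, whose genome build is not given in the sources used here. Its log2 values in the GK animals were 7.61, 7.81 and 7.91. The other animals ranged from 4.23 to 6.93 with a median of 4.68. The difference was 2.94 ± 0.13 (SE, adjusted p = 1.8e-11), the largest difference among the 139 genes above. Within batch 16, which held 1 GK animal, the difference was 2.93, and within batch 17 it was 2.93. For an outside gene the sign within each batch follows from the criterion. The comparison strains fell into levels of their own: FHH/EurMcwi averaged 6.55 ± 0.35 (SD, n = 3) and the other 6 strain means lay between 4.43 and 4.64. Across the 72 other strains of the table, HXB20/Ipcv had the highest mean at 7.66, and it was the only strain mean at or above the lowest GK animal. The same SHR/OlaIpcv animal, sequenced in batches 15, 16 and 17, gave 6.96, 7.53 and 7.91, a range of 0.95 for 1 animal.

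Mx2, an interferon-induced GTPase, is annotated on chromosome 11 at 36905698 to 36937572. The GK animals had 10.99, 11.29 and 11.11 and the other animals 9.60 to 10.26, a difference of 1.10 ± 0.07 (SE, adjusted p = 1.7e-09). Irf7, the transcription factor that amplifies interferon production, had 8.33, 8.49 and 8.48 in GK against 7.00 to 7.84 in the other animals, with a difference of 1.12 ± 0.09 (SE, adjusted p = 6.7e-08). Both genes were separated from the 21 other animals by at least 0.50. Usp18, which removes ISG15 from proteins and restrains the receptor, had 7.52, 7.46 and 7.59 in GK against 6.20 to 7.31 (difference 0.84 ± 0.12, adjusted p = 0.00011). Oas1a, a synthase of the oligoadenylates that activate RNase L, had 6.92, 6.99 and 7.14 against 6.05 to 6.81 (difference 0.73 ± 0.11, adjusted p = 0.00026). LH/MavRrrc had the highest mean among the comparison strains for Mx2, Irf7, Usp18 and Oas1a. Among the 72 other strains of the table, 4 had means at or above the lowest GK animal for each of Mx2, Irf7 and Usp18 and 8 for Oas1a, and the highest were 11.24 for Mx2 (HXB22/Ipcv), 8.50 for Irf7 (SHR/OlaIpcv), 7.53 for Usp18 (WKY/NCrl) and 7.19 for Oas1a (HXB22/Ipcv). Within batch 16 (1 GK animal) and batch 17 the differences were 1.01 and 1.11 for Mx2, 0.98 and 1.10 for Irf7, 0.82 and 0.86 for Usp18, and 0.56 and 0.77 for Oas1a. Their sign again follows from the choice of outside genes.

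Irf9, a transcription factor of the interferon response, showed a smaller difference of 0.36 ± 0.06 (SE, adjusted p = 0.0014), with GK animals at 9.20, 9.25 and 9.26 and the others between 8.72 and 9.07. Dhx58, a cytoplasmic sensor related to RIG-I, differed by 0.53 ± 0.08 (adjusted p = 0.00031), and by 0.24 (adjusted p = 0.64) in the reconstructed gene table, where Oas1a did not pass either (adjusted p = 0.056). Ifi27 differed by 0.68 ± 0.11 (adjusted p = 0.00032), and its highest other animal at 10.68 was within 0.04 of the lowest GK animal. Slfn2, a Schlafen-family gene, differed by 0.47 ± 0.08 (adjusted p = 0.0017). These 4 genes lay outside by gaps of 0.21 or less, and for Ifi27 the means of PVG/Seac (10.52), LH/MavRrrc (10.47) and FHH/EurMcwi (10.45) were nearest. Mx1 did not pass (adjusted p = 0.25), with 7.04, 7.14 and 7.12 in GK inside a range of 6.29 to 7.61. Among the called genes that were not outside were Ifit3 (difference 0.76 ± 0.10, adjusted p = 4.8e-05) and Isg15 (difference 0.64 ± 0.13, adjusted p = 0.005, and 0.09 without GK animal 2).

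**Figure D2:**
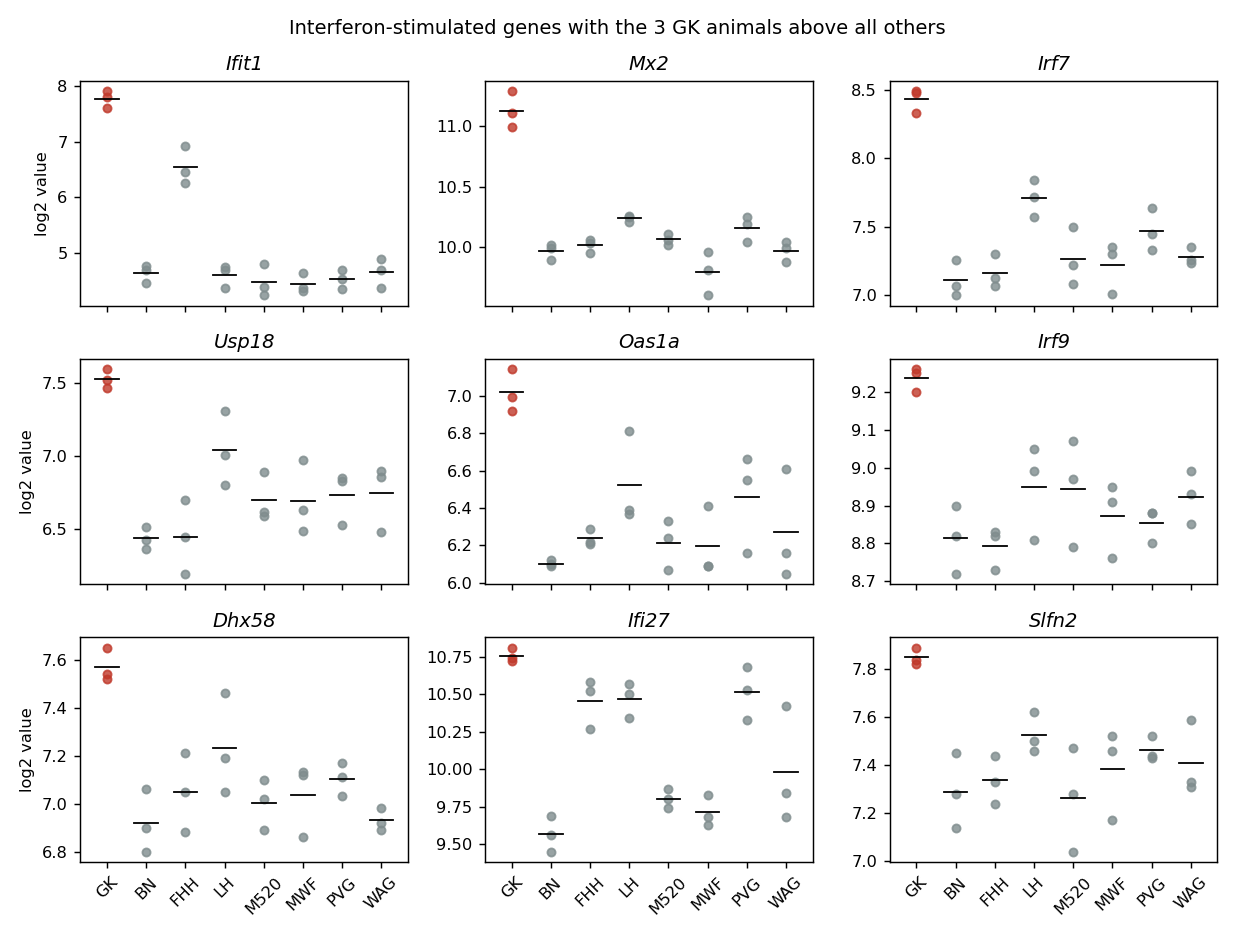
Log2 expression value (y axis, a separate scale for each gene) of each animal in the 8 strains (x axis) for the 9 interferon-stimulated genes with the GK animals above all others; points are animals, red for GK and grey for the other strains, and lines are strain means of 3 animals. Ifit1 lies at 7.61 to 7.91 in GK, at intermediate values in FHH/EurMcwi and near 4.68 in the remaining strains.

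The promoters of the outside genes of this list are shown because interferon-stimulated genes are known for a promoter element, the interferon-stimulated response element. The RefSeq promoter table (GRCr8 assembly of BN/NHsdMcwi, 250 bases before to 50 after the start) held Irf7, Oas1a, Ifi27, Irf9 and Slfn2, and Ifit1, Mx2, Usp18 and Dhx58 are named only. Each is printed 5′ to 3′ in the direction of the gene, with matches in capitals to GAAA, any 2 bases and GAAA or, on the other strand, TTTC, any 2 bases and TTTC, where overlapping matches run together.
Irf7 (chr1:205799974-205800273, minus strand): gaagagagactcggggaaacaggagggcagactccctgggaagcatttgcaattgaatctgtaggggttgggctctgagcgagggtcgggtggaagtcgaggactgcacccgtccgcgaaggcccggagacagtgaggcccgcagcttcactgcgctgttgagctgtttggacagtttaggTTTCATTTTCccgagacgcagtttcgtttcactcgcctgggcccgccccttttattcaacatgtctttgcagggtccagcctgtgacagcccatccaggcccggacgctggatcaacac
Oas1a (chr12:41330216-41330515, plus strand): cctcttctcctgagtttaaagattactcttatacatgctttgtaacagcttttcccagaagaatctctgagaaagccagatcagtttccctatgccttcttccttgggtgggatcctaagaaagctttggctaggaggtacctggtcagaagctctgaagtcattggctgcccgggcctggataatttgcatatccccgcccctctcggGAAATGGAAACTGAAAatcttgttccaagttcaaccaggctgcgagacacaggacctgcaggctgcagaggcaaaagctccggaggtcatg
Ifi27 (chr6:128355062-128355361, plus strand): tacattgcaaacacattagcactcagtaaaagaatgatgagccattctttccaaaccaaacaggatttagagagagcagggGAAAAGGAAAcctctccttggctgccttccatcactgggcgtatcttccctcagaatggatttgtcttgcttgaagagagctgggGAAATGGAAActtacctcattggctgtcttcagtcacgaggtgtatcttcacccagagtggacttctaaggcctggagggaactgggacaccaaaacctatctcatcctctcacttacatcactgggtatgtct
Irf9 (chr15:33065586-33065885, plus strand): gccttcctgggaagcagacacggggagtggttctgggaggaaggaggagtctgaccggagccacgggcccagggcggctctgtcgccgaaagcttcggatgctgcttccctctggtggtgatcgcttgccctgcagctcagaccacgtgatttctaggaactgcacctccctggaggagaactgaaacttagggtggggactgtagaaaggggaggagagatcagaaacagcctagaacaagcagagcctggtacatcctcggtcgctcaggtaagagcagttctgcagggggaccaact
Slfn2 (chr10:68450611-68450910, plus strand): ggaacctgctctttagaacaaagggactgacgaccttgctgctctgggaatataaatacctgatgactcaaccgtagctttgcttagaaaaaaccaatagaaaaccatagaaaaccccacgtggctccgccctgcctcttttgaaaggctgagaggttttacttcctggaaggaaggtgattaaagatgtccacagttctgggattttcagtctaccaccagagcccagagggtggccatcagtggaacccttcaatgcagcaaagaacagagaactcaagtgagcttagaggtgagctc
Irf7 held 1 match, Oas1a held 2 overlapping matches and Ifi27 held 2 separate ones, while Irf9 and Slfn2 held none of these letters in this window. The motif was present in 3.92% of all 33469 promoters of the table. With 1 promoter for each gene, it was present in 459 of 14875 tested genes (3.09%). Among called genes of the list that had a promoter there, 8 of 11 held it (72.7%). It was also present in 18 of 31 listed genes that were not called (58.1%). The motif was thus frequent in called and uncalled members of the list alike, and the difference between their shares was not tested. Among the outside genes, 9 of 100 promoters of genes above (9%) and 4 of 105 promoters of genes below (3.81%) held it. Those above include Irf7, Oas1a and Ifi27 of the list. A match is a description of the reference sequence and not evidence that a factor was bound.

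Beyond the interferon genes, the genes named by the fixed rule were the 12 above and the 12 below with the widest gaps among called genes with a symbol and a mean above the table median of 8.31, out of 39 and 45 that qualified. The 12 above were Mx2, Rpl7a, Hbb-bs, Mtarc2, Taf13, Cfb, Otof, RT1-A1, Nrde2, Irf9, Hba-a2 and Mcm6. Most were not particular to GK among the 72 other strains of the table. Strain means at or above the lowest GK animal numbered 13 for Hba-a2, 10 for Hbb-bs and Cfb, and 7 for Otof and Irf9. They numbered 5 for Nrde2, 4 for Mx2, 3 for RT1-A1, 2 for Rpl7a and 0 for Mtarc2, Taf13 and Mcm6. Taf13, a subunit of the general transcription factor TFIID, had 11.22, 10.90 and 10.84 in GK against 9.81 to 10.64 in the others (difference 0.86 ± 0.12, adjusted p = 0.00014), and no other strain mean of the 72 reached the lowest GK animal. Its neighbour Tmem167b, chosen after its values were seen, was also above all others, by a smaller difference of 0.26 ± 0.06 (adjusted p = 0.01, up to 0.095 without GK animal 2 or 3, and 0.71 in the v6 Ensembl gene table). Mtarc2, a mitochondrial molybdenum enzyme that reduces amidoximes, differed by 0.32 ± 0.04 (adjusted p = 9.4e-05), with GK animals at 10.73, 10.62 and 10.64. Otof, which encodes the calcium sensor otoferlin of hair-cell synapses, differed by 0.55 ± 0.08 (adjusted p = 0.00017), with GK animals at 10.37 to 10.58 against 9.58 to 10.20.

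Rpl7a, a protein of the large ribosomal subunit, showed a difference of 0.95 ± 0.12 (SE, adjusted p = 3.6e-05), with GK animals at 12.64, 12.74 and 12.70 and the others between 11.27 and 12.07. The value is uncertain, because processed copies of ribosomal protein genes can share its reads. In the v6 Ensembl gene table the difference was 0.07 (adjusted p = 0.89), and 1 SHR/OlaIpcv animal varied by 0.93 between batches. Cfb, factor B of the alternative complement pathway, is annotated on chromosome 20 at 3936602 to 3976526 and had 9.18, 9.36 and 9.33 in GK against 8.46 to 9.01 (difference 0.55 ± 0.08, adjusted p = 0.00031). C2, its neighbour and the corresponding protease of the classical pathway, was chosen after its values were seen and was also above all others, at 8.63, 8.68 and 8.69 against 7.75 to 8.60 (difference 0.40 ± 0.09, adjusted p = 0.009, and up to 0.078 without GK animal 2 or 3). Nrde2 and Mcm6 had differences of 0.30 and 0.26, and their calls were lost without GK animal 2 (Nrde2, adjusted p = 0.08) or when any of the GK animals was left out (Mcm6, adjusted p = 0.13 to 0.14). In the reconstructed gene table neither passed (adjusted p of 0.24 for Nrde2 and 0.11 for Mcm6), and Nrde2 did not pass in the v6 Ensembl gene table (0.22).

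**Figure D3:**
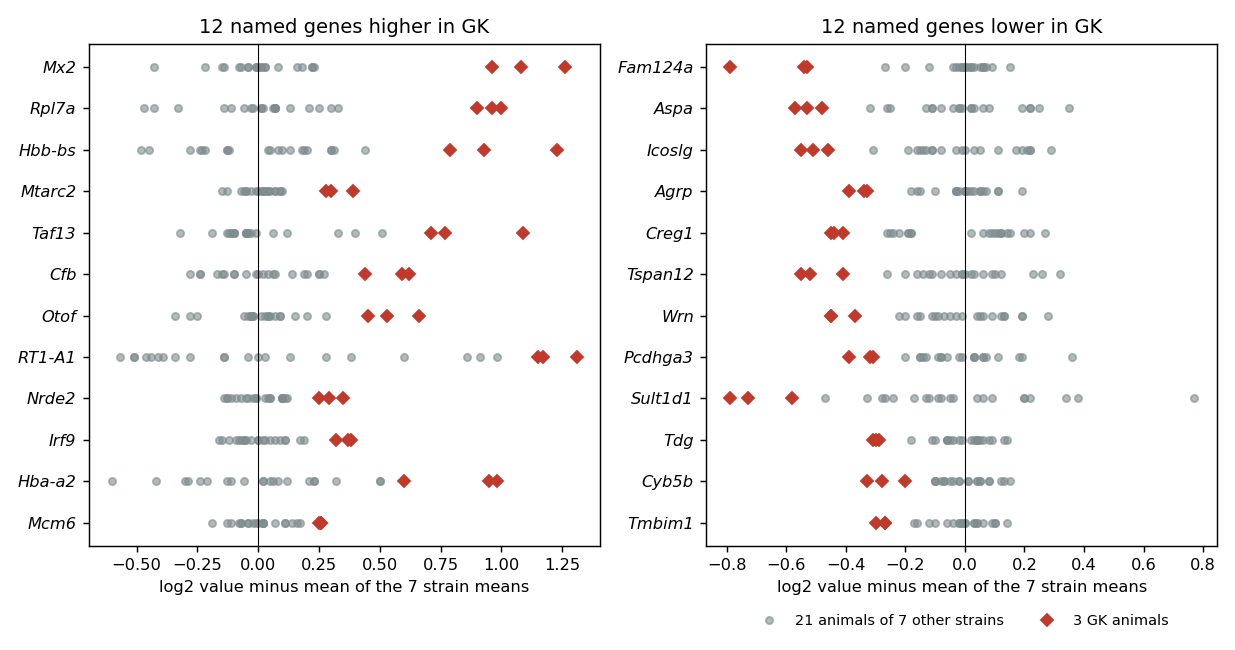
Values of the 24 animals for the 12 named genes above (left) and the 12 below (right), as log2 value minus the mean of the 7 other strain means (x axis), with red diamonds for the 3 GK animals and grey circles for the 21 others. In each row the GK animals lie beyond all others, from the gap of 0.73 for Mx2 to 0.08 for Mcm6.

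The 12 named genes below all others were Fam124a, Aspa, Icoslg, Agrp, Creg1, Tspan12, Wrn, Pcdhga3, Sult1d1, Tdg, Cyb5b and Tmbim1. Among the 72 other strains of the table, means at or below the highest GK animal numbered 20 for Cyb5b, 13 for Agrp and 4 for Sult1d1. They numbered 2 for Aspa, Tspan12 and Wrn, 1 for Creg1 and Pcdhga3, and 0 for Fam124a, Icoslg, Tdg and Tmbim1. Fam124a, on chromosome 15 at 36799836 to 36855260, had 8.01, 8.27 and 8.26 in GK against 8.53 to 8.95 in the other animals (difference -0.62 ± 0.07, adjusted p = 9.8e-06). It was 1 of 8 genes in which the GK animals lay outside every animal of all 72 other strains in the table, the lowest other strain mean being 8.59. Aspa, the oligodendrocyte enzyme that cleaves N-acetylaspartate, had 9.44, 9.39 and 9.35 against 9.60 to 10.27 (difference -0.53 ± 0.10, adjusted p = 0.0016). Icoslg, a ligand that costimulates T cells, had 8.51, 8.55 and 8.60 against 8.75 to 9.35 (difference -0.51 ± 0.07, adjusted p = 5.4e-05), and no other strain mean of the 72 was as low. Wrn, the RecQ helicase mutated in Werner syndrome, had 9.36, 9.44 and 9.36 against 9.59 to 10.09 (difference -0.43 ± 0.06, adjusted p = 0.00018).

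Tspan12, a tetraspanin that acts with norrin and Frizzled in retinal vessel growth, fell by 0.49 on the log2 scale (SE 0.09, adjusted p = 0.0025), and Creg1, a secreted lysosomal glycoprotein, fell by 0.43 (SE 0.06, adjusted p = 0.00024). Tdg, the thymine DNA glycosylase that removes oxidised methylcytosine, varied little within GK, at 10.06, 10.07 and 10.05 against 10.18 to 10.50 (difference -0.30 ± 0.06, adjusted p = 0.0041). Sult1d1, a sulfotransferase, had 7.97, 8.12 and 7.91 against 8.23 to 9.47 (difference -0.70 ± 0.10, adjusted p = 0.00022). Pcdhga3, a clustered protocadherin, was below all others together with its neighbour Pcdhga2, chosen after its values were seen (difference -0.45 ± 0.07, adjusted p = 0.00028). The call of Pcdhga3 was lost when any of the GK animals was left out (adjusted p = 0.06 to 0.11), that of Cyb5b without GK animal 3 (0.061) and that of Tmbim1 without GK animal 1 (0.053). Of the named genes below, 6 did not pass in the reconstructed gene table: Aspa (adjusted p = 0.14), Creg1 (0.085), Tspan12 (0.057), Tdg (0.18), Cyb5b (0.45) and Tmbim1 (0.12).

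The other genes outside all 72 strains, chosen for that reason and so a description, were Commd9, Mettl2 and Tmbim1 and the uncharacterised LOC108349099 and LOC120097567 below, with LOC102554337 and LOC120095873 above. Mettl2, which encodes a tRNA methyltransferase, had 7.35, 7.58 and 7.59 in GK against 7.93 to 8.21. Commd9, a partner of the copper-transport and endosomal sorting complex, had 9.71, 9.76 and 9.71 against 9.77 to 10.62. LOC120097567 had 5.51, 5.56 and 5.41 against 5.80 to 7.59 (difference -1.46 ± 0.09).

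Several other genes that the rule did not name, most of them with means below the table median, were chosen after their values were seen because they were widely separated. Lgals5, a galectin of rat red cells and their precursors, had 7.43, 7.48 and 7.06 in GK against 4.94 to 5.81, with a difference of 1.85 ± 0.10 (SE, adjusted p = 3.2e-10). Cd7, a surface receptor of T and natural killer cells, had 4.65, 4.62 and 4.51 against 3.23 to 3.62, with a difference of 1.23 ± 0.07 (adjusted p = 9.7e-10). Slc11a1, the iron transporter of phagosomes, had 6.77, 6.79 and 6.85 against 5.65 to 6.19, with a difference of 0.83 ± 0.08 (adjusted p = 1e-06). These 3 immune or blood-cell genes were separated from all animals of the comparison strains. So was Myom2, a protein of the muscle M band (7.61, 7.62 and 7.56 against 6.59 to 6.91). Among the 72 other strains of the table, the highest means were 7.16 for Lgals5, 4.75 for Cd7 and 6.92 for Slc11a1. These passed the lowest GK animal, whereas that of Myom2 (7.43) did not. Between batches, 1 SHR/OlaIpcv animal varied by 0.58 in Lgals5, 0.67 in Cd7, 0.85 in Slc11a1 and 0.44 in Myom2. It reached 6.98 in Slc11a1 and 7.64 in Myom2, above all GK animals, but stayed below them in Lgals5 and Cd7. Below all animals of the comparison strains, Tigit, an inhibitory receptor of lymphocytes, had 4.05, 3.72 and 4.06 against 4.47 to 5.86 (difference -1.35 ± 0.20, adjusted p = 0.00019). The uncharacterised LOC120097345 had the widest gap of all, 1.82, with 7.07, 6.35 and 5.99 in GK against 8.89 to 11.10. Of the 72 other strains of the table, 5 had means at or below the highest GK animal, the lowest being 5.96 in HXB2/Ipcv. The same SHR/OlaIpcv animal gave 8.33, 6.72 and 6.61 in batches 15, 16 and 17, a range of 1.72.

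The lists of insulin and glucose handling were called no more often than the 3.91% of all genes. None of 39 measured members of the insulin and IGF signalling list was called by limma, 8 had an unadjusted p under 0.05, as did 3100 of all genes (14.9%), and the median difference was 0.01 (all genes: -0.01). The largest differences in that list were those of Irs4 (-0.28 ± 0.12, adjusted p = 0.27), an insulin receptor substrate of the hypothalamus, Igfbp2 (0.26 ± 0.09, adjusted p = 0.12), a binding protein for insulin-like growth factors, and Mtor (0.21 ± 0.06, adjusted p = 0.082), the growth kinase. Mtor passed with the batch covariate, the replicate block or equal library medians (lowest adjusted p = 0.038). None of the 24 measured genes studied in GK diabetes was called, and 1 had an unadjusted p under 0.05. The largest differences there were 0.18 for Sv2a and Glp1r and 0.15 for Adcy5.

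Of 39 genes of glucose uptake and glycolysis, 1 was called (2.56%, against 3.91% of all genes). Slc16a1, the transporter for lactate and ketone bodies of endothelium and glia, on chromosome 2 at 192123755 to 192151889, had 11.53, 11.50 and 11.44 in GK against 11.54 to 12.12 (difference -0.26 ± 0.07, adjusted p = 0.031). The GK animals were below all others by a gap of 0.01, and the call was lost when any of the GK animals was left out (adjusted p = 0.11 to 0.23) and with library medians set equal or in the reconstructed gene table (0.38). Its 2 RefSeq transcripts differed by 0.13 and -0.42 in the transcript table, and neither passed. Gpd1, glycerol-3-phosphate dehydrogenase, differed by 0.35 ± 0.10 (adjusted p = 0.055) and passed with the batch covariate, equal library medians, a robust trend or 1 fit of all animals (lowest adjusted p = 0.017). Slc2a4, the insulin-responsive glucose transporter, had a difference of -0.28 ± 0.13 (adjusted p = 0.34), and Pkm, pyruvate kinase, one of 0.23 ± 0.09 (adjusted p = 0.21).

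Among 27 measured genes of hypothalamic feeding control, 1 was called (3.7%, near the 3.91% of all genes). Agrp, the orexigenic antagonist of melanocortin receptors made in the arcuate nucleus, had 8.02, 8.03 and 7.97 in GK against 8.18 to 8.55 in the others (difference -0.35 ± 0.05, adjusted p = 6.6e-05). That value did not hold for its coding transcript: the RefSeq transcript NM_033650.1 had 2.52, 3.35 and 2.41 in GK against -0.22 to 4.01 in the others, a difference of 1.03 ± 0.73 (adjusted p = 0.82). For Agrp the v6 Ensembl gene table gave 0.28 (adjusted p = 0.31), and the reconstructed gene table gave -0.67 (adjusted p = 0.0044). The deposited annotation of the reconstructed features assigns the name Agrp to a feature on chromosome 19 at 33447775 to 33523083. That feature spans far more than a neuropeptide gene, and whether its extent bears on the RefSeq gene value is not known. Because the coding transcript and the v6 Ensembl gene table did not show the lower value, the gene-level difference cannot be read as one of Agrp messenger RNA. Oxt, oxytocin, had the largest difference of the list at 1.03 ± 0.32 (adjusted p = 0.085), with GK animals at 7.47, 7.58 and 7.72 inside a range of 5.31 to 8.09, and it passed without MWF/Hsd animal 1 and the WAG/RijCrl animals (0.024). Avp (0.44 ± 0.33, adjusted p = 0.62) and Pomc (-0.38 ± 0.26, adjusted p = 0.58) did not pass.

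Of 43 measured antioxidant and glutathione genes, 1 was called higher and 2 were called lower (6.98%, against 3.91% of all genes). Nqo1, the quinone reductase induced by NRF2, had 9.10, 9.14 and 9.22 in GK against 8.68 to 9.09 (difference 0.29 ± 0.06, adjusted p = 0.012). Gsta4, which conjugates the lipid peroxidation product hydroxynonenal, differed by -0.39 ± 0.09 (adjusted p = 0.018), and Gstt3 by -0.38 ± 0.08 (adjusted p = 0.0088), both within the range of the other animals. The call of Nqo1 was lost without GK animal 2 (adjusted p = 0.067) or 3 (0.14). Those of Gsta4 (0.054 to 0.2) and Gstt3 (0.06 to 0.066) were lost when any of the GK animals was left out. Nqo1 and Gsta4 did not pass in the reconstructed gene table (adjusted p of 0.22 and 0.24). Cyb5b, the neighbour of Nqo1 on chromosome 19, was below all others while Nqo1 was above.

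The MHC and antigen presentation list had the largest share of calls among the 6 pathway lists, 12 of 37 measured members (32.4%, against 3.91% of all genes), in both directions. The 7 called higher were RT1-A1, RT1-T24-1, RT1-T24-3, RT1-CE4, RT1-CE12, Psmb8 and Tapbp. The 5 called lower were RT1-A2, RT1-A3, RT1-CE10, RT1-S3 and RT1-T24-4. RT1-A1, a classical class I molecule, had 10.45, 10.29 and 10.31 in GK against 8.57 to 10.12 (difference 1.21 ± 0.11, adjusted p = 2.5e-07), and RT1-A2 had 8.46, 8.38 and 8.79 against 8.20 to 9.90 (difference -0.63 ± 0.14, adjusted p = 0.0081). RT1-T24-3, a non-classical class I gene, differed by 1.36 ± 0.11 (adjusted p = 1.1e-07), and RT1-T24-4 by -0.88 ± 0.11 (adjusted p = 3.1e-05). Psmb8, the immunoproteasome subunit, differed by 0.43 ± 0.10 (adjusted p = 0.013). B2m, the light chain of class I molecules, and Tap1, a subunit of the peptide transporter, did not pass: B2m had 12.95, 13.04 and 12.76 inside a range of 12.67 to 13.33, and Tap1 had 6.61, 6.54 and 6.95 inside 6.36 to 7.45.

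Class I genes are near-identical copies that vary between haplotypes, so the values of single RT1 genes are uncertain. RT1-A1 did not pass in the reconstructed gene table (0.21, adjusted p = 0.59) or the v6 Ensembl gene table (0.19, adjusted p = 0.6). Of the 12 calls, 8 were lost in at least 1 run that left out an animal (highest adjusted p = 0.27), and the calls of RT1-A1, RT1-T24-1, RT1-T24-3 and RT1-T24-4 were kept in these 24 runs. In the other tables, RT1-T24-3 reversed to -0.19 (reconstructed, adjusted p = 0.89), RT1-T24-4 to 0.16 (v6 Ensembl, adjusted p = 0.36) and Psmb8 to -0.13 (reconstructed, adjusted p = 0.92), and RT1-S3 did not pass in the v6 Ensembl table (adjusted p = 0.11).

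Markers of cell types that whole brain can hold were described next, and in bulk tissue fewer cells of a type and less RNA per cell cannot be told apart. All 7 blood markers were called, 6 higher and 1 lower, against 3.91% of all genes, and 4 were called without GK animal 2, 3 of 4 in the v6 Ensembl gene table and 1 of 3 in the reconstructed gene table. Hbb-bs had 11.07, 11.51 and 11.21 in GK against 9.80 to 10.72 (difference 0.99 ± 0.14, adjusted p = 0.00012), and Hba-a2 had 13.23, 13.58 and 13.61 against 12.03 to 13.13 (difference 0.84 ± 0.16, adjusted p = 0.0036, and 0.053 without GK animal 3). Alas2, the erythroid enzyme of haem synthesis, differed by 0.67 ± 0.13 (adjusted p = 0.0039, and 0.067 without GK animal 2). Hbb-b1, a paralogous beta globin, went the other way, with 8.65, 9.20 and 8.90 against 8.64 to 10.58 (difference -0.92 ± 0.13, adjusted p = 9.2e-05). Globin genes are near-identical copies, so the values of single globins are uncertain. The mean over the 7 blood markers was 11.26 to 11.63 in GK and 10.28 to 11.35 in the others, so the groups overlapped, and 1 SHR/OlaIpcv animal varied by 1.01 in Hba-a2 between batches. Hemgn, an erythroid nuclear protein chosen after its values were seen, differed by 0.56 ± 0.11 (adjusted p = 0.0036, and up to 0.062 without GK animal 2 or 3). The part of blood content in the differences of Lgals5, Cd7 and Hemgn was not tested.

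Of the other marker lists, choroid plexus had all 9 members above 0 (median difference 0.30) and none called, with 3 at an unadjusted p under 0.05. No liver, neuron, astrocyte, microglia, endothelium or cerebellum marker was called by limma. Their counts at an unadjusted p under 0.05, against 14.9% of all genes, were 0 of 10 for liver, 0 of 9 for neuron, 0 of 6 for cerebellum, 2 of 7 for astrocyte, 2 of 8 for microglia and 4 of 7 for endothelium. Of the pituitary markers, Prl, Gh1, Tshb and Fshb were not among the genes tested, and none of the 4 others was called, with 1 at an unadjusted p under 0.05. Of 6 olfactory bulb markers, 5 had differences below 0 and 3 had an unadjusted p under 0.05, with a median of -0.27. Among them, Doc2g was called lower (difference -0.62 ± 0.15, adjusted p = 0.019, and 0.066 to 0.14 when any of the GK animals was left out). Col3a1 of the meninges was called higher (difference 0.23 ± 0.06, adjusted p = 0.044), and its call was lost in 14 of 24 runs that left out 1 animal (adjusted p = 0.051 to 0.44). The list mean of neuronal markers was 13.42 to 13.50 in GK, inside the range of 13.33 to 13.54 of the others. That of oligodendrocyte markers was 14.25 to 14.26 in GK and 14.29 to 14.61 in the others, with all 7 differences below 0 and 1 called. The part of oligodendrocyte content in the differences of Mobp and Aspa was not tested.

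**Figure D4:**
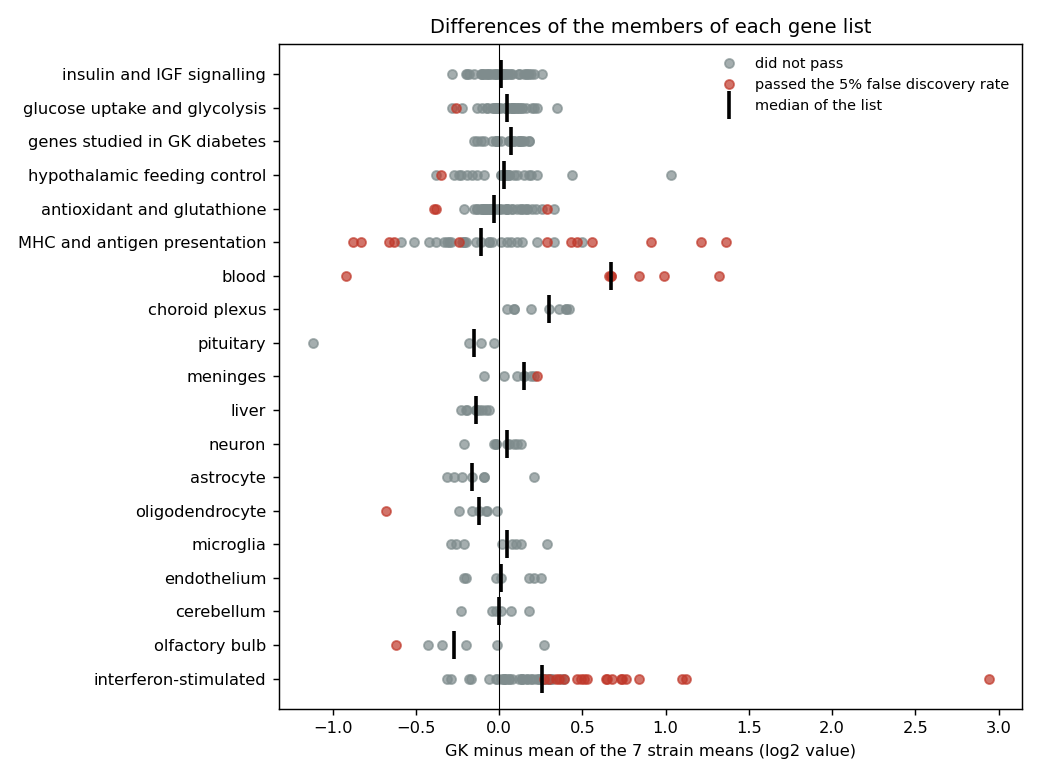
Difference of each measured member (x axis, GK minus the mean of the 7 strain means, log2 value) for the 6 pathway lists, the 12 marker lists and the interferon-stimulated list (rows); red points passed the 5% false discovery rate, grey points did not and black bars are list medians. Members of the insulin and glucose lists lie near 0, blood markers lie at a median of 0.67, and interferon-stimulated genes extend to 2.94.

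Of 7 oligodendrocyte markers only Mobp was called, and the estimated values of its transcripts differed in both directions. Mobp was chosen for closer description after its values were seen. It encodes the myelin-associated oligodendrocyte basic protein, a structural protein of compact myelin with several splice forms. At the gene level GK animals had 14.79, 15.01 and 14.73 against 15.06 to 15.78 (difference -0.68 ± 0.10, adjusted p = 0.00026), on chromosome 8 at 119869504 to 119905070. The table of 45918 RefSeq transcripts, of which 458 were called (0.997%) and 336 outside (0.732%), held 8 Mobp transcripts: 2 were called higher and 4 lower. XM_039080855.1 had 11.51, 12.13 and 11.87 in GK against 2.58 to 9.47 in the others, with a median of 6.33 (difference 5.45 ± 0.58, adjusted p = 4.4e-05). XM_039080862.1, the most abundant form, had 14.14, 14.41 and 14.03 against 14.50 to 15.52 (difference -1.01 ± 0.17, adjusted p = 0.0033). NM_012720.2 had 10.40, 10.58 and 10.57 against 11.31 to 12.33 (difference -1.29 ± 0.12, adjusted p = 6.8e-06).

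GK/FarMcwi therefore had a higher estimate for 1 Mobp transcript than any animal of the 7 comparison strains, and lower estimates for 4 others. The transcript comparison covers these strains only. At the gene level, 8 of the 72 other strains of the table had means at or below the highest GK animal. The lowest was 14.69 in SHRSP/A3NCrl. XM_039080855.1 varied among the comparison strains, with means of 8.58 in M520/N and 8.33 in WAG/RijCrl and 4.45 to 6.64 in the other 5. NM_001389272.1 split the strains into levels: it averaged 8.59 ± 0.35 (SD, n = 3) in GK, 8.71 in BN/NHsdMcwi, 7.76 in WAG/RijCrl and 7.71 in M520/N, and 3.23 to 3.39 in the remaining 4. Its call (difference 3.26 ± 0.35, adjusted p = 5.2e-05) was made against the mean of 7 strains, and BN/NHsdMcwi had a higher mean than GK. The abundances of transcripts of 1 gene were estimated from shared reads and are not independent of each other. Whether the splice forms of Mobp themselves differed was not tested.

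**Figure D5:**
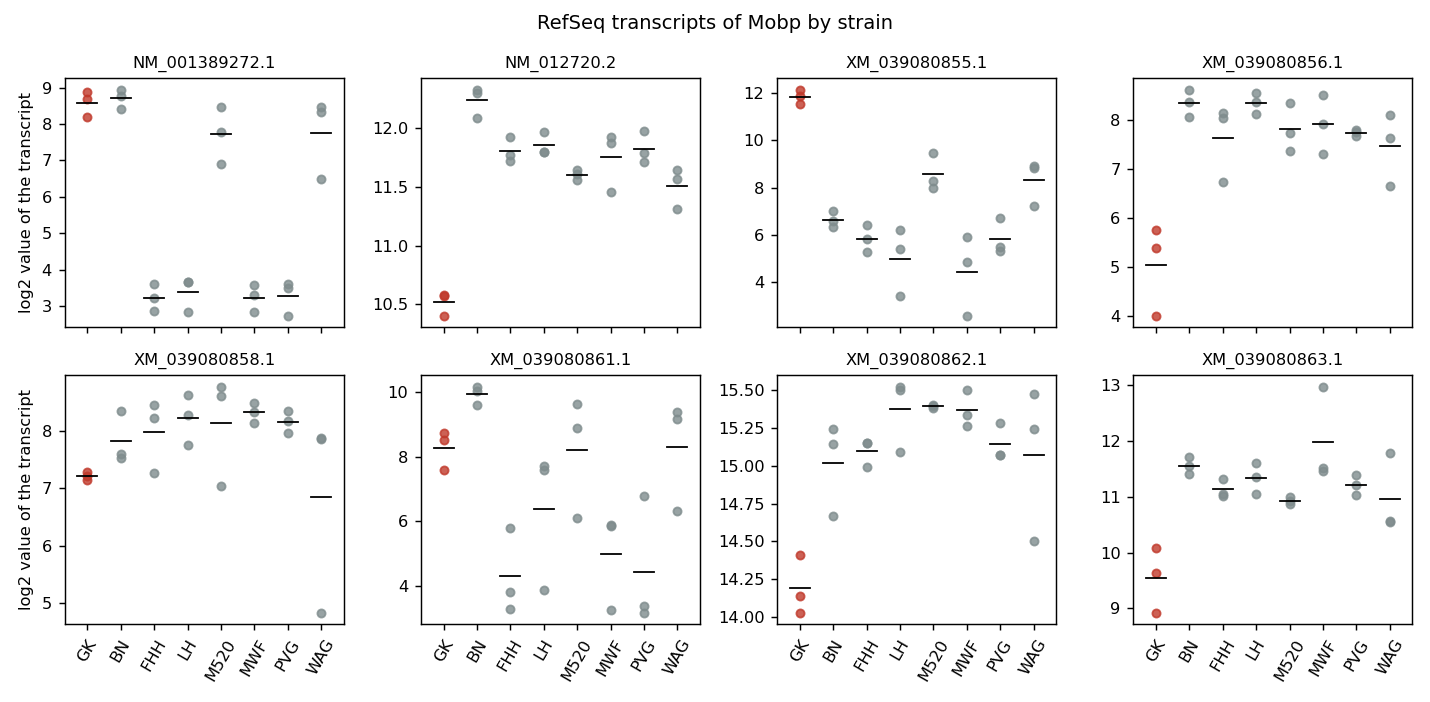
Log2 value (y axis, a separate scale for each transcript) of the 8 RefSeq transcripts of Mobp in each animal of the 8 strains (x axis); red points are GK animals, grey points the other animals and lines the means of 3. The GK animals lie above all others for XM_039080855.1 and below all others for NM_012720.2, XM_039080856.1, XM_039080862.1 and XM_039080863.1.

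In the transcript table, 225 outside genes had a transcript matched by RefSeq identifier, and 76 of these (33.8%) had a transcript called in the same direction. Ifit1 has 1 transcript, which had 7.91, 8.51 and 8.64 in GK against 0.68 to 7.44 in the others (difference 5.62 ± 0.46, adjusted p = 2.4e-06). The 2 tables were normalized separately, so the sizes of gene and transcript differences are not compared. In each of Mx2, Irf7, Cd7 and Lgals5, 1 transcript was called higher and lay above all others, with differences of 2.08 ± 0.16 for Mx2 (adjusted p = 1.8e-06), 2.15 ± 0.38 for Irf7 (adjusted p = 0.0062), 3.26 ± 0.44 for Cd7 (adjusted p = 0.00055) and 2.98 ± 0.34 for Lgals5 (adjusted p = 1e-04). Of the other outside interferon genes, Usp18 and Ifi27 each had 1 transcript called higher (adjusted p of 0.011 and 0.037), and no transcript of Irf9, Dhx58, Oas1a or Slfn2 passed (adjusted p of 0.35 or more). Those of Fam124a (-0.89 ± 0.12, adjusted p = 0.00065) and Tigit (-2.79 ± 0.39, adjusted p = 0.00081) were called lower. Among the genes named by the rule, no transcript passed for Otof, Nrde2, Irf9, Hba-a2 or Mcm6 above (adjusted p of 0.069 or more). The same held below for Aspa, Icoslg, Agrp, Tspan12, Wrn, Pcdhga3, Tdg and Cyb5b (0.073 or more). Each other gene named by the rule had a transcript called in its direction. No transcript of Myom2, Slc11a1, Hemgn, C2 or Tmem167b passed (0.13 or more).

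The outside genes were spread over the genome, with local runs. By the order of RefSeq genes on the GRCr8 assembly, 259 outside genes could be placed, and 43 of them (16.6%) had another outside gene within 2 tested genes, against 5.29% of all placed genes. These formed 20 runs of 2 or 3 genes, 11 in which all members lay on the same side and 9 with members on both sides. Runs on the same side included Hba-a3 with Hba-a2, RT1-T24-3 with RT1-T24-1, C2 with Cfb and Pcdhga2 with Pcdhga3. Globin and class I genes are near-identical copies that can share reads, and the part of shared reads in the runs was not tested. Runs with opposite sides included Slc11a1 above with Tmbim1 below on chromosome 9, and Nqo1 above with Cyb5b below on chromosome 19. Over all chromosomes, 259 of 18407 placed genes were outside. Chromosome 20, which carries the MHC, had 16 outside genes of 547 placed (2.93%), and chromosome 16 had 14 of 529 (2.65%). Chromosome 10 had the largest number, 36 of 1511 (2.38%). By RefSeq biotype, 59 of 2502 long non-coding RNA genes (2.36%) and 196 of 15810 protein-coding genes (1.24%) were outside.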

How the data were processed

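Total RNA from whole brain was depleted of ribosomal RNA and sequenced from stranded libraries. The submitters' processing notes for these samples name cutadapt 1.9.1, Bowtie2 2.3.4.3, HISAT2 2.1.0, StringTie 1.3.5, RSEM 1.3.1 and DESeq2, and the authors deposited log2-scale gene and transcript values. The transformation and genome build of version 7.1 are not given in the sources used here, and coordinates are those of the deposited annotation, whose reconstructed features can exceed a gene. Spike-ins (73) were left out, and 1 column whose labels disagreed was not used. Values were fitted with limma 3.58.1 (R 4.3.3) on strain in the 24 animals, with Benjamini-Hochberg adjustment over 20859 genes. The fit was tested on simulated data in which unchanged genes had a common mean in all strains and no batch effect. That test therefore cannot show how the calls behave under the spread between strains or batches. Genes were named by a rule on symbol, level, call and gap (12 in each direction) plus called list members. In lists with few calls, uncalled members with the largest differences were also named. Most other genes are described as chosen after their values were seen, while B2m and Tap1 were named without a rule. The members and lists were chosen with earlier results of these data known. Where nothing says that animals came from separate litters, p-values measure the spread between these animals.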

Additional observations from a re-analysis of the deposited data

How the results depend on the processing

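The number of called genes was 816 and that of outside genes 305. Called genes numbered 1344 with the batch covariate, 214 among genes above the table median, 420 at a false discovery rate of 1%, and 382 to 921 when 1 animal was left out. Outside genes numbered 128 among genes above the table median, 43 and 12 with gaps of at least 0.25 and 0.5, 8 against all other strains, 697 in the reconstructed gene table, and 311 to 506 when 1 animal was left out. Without MWF/Hsd animal 1 and WAG/RijCrl, an alternative chosen after seeing the data, they numbered 461. Called members of the 6 pathway lists, 17 as reported, numbered 28 with the batch covariate, 9 above the table median, 9 at 1%, 2 in the reconstructed gene table, 9 in the v6 Ensembl gene table, and 6 to 19 when 1 animal was left out. With the replicate block, which did not pair animals, 977 genes were called and 348 lay outside. The mean correlation of deviations from strain means was 0.0609 for animals with the same number and -0.0313 otherwise, and 15 of 24 animals correlated best with an animal of their own number. Of 82 named genes that were called, 37 kept direction and call under every alternative run that held them. Only 48 of the 82 were held by symbol in the reconstructed gene table and 56 in the v6 Ensembl gene table. Genes absent from a table were not run there, so they are counted without it. A reversal was seen in 4: Agrp (0.28) and RT1-T24-4 (0.16) in the v6 Ensembl gene table, and Psmb8 (-0.13) and RT1-T24-3 (-0.19) in the reconstructed gene table. Of the genes reported here, 101 of the 816 called (12.4%) and 92 of the 305 outside (30.2%) were likewise called or outside, in either direction, in the reconstructed gene table, which held 64.3% of the symbols, and 328 (40.2%) and 135 (44.3%) in the v6 Ensembl gene table, which held 70.4%. The cause was not tested.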
